A study of Mus musculus with 20 samples.

Results

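The cholesterol efflux and liver X receptor (LXR) genes considered here were Abca1, Abcg1, Nr1h3, Nr1h2, Apoe, Mylip, Scarb1, Npc1, Npc2 and Soat1. They were taken by the gene name that the array design gives to each spot that is not a control, and are 10 of the 37074 gene names on the array. This rule uses names alone, but the genes were picked with earlier results of these data known. The 10 genes carried 23 probes, of which 20 passed the filter on dim signal, so that every gene had at least 1 tested probe. The 3 probes left out, 1 each of Nr1h2, Npc1 and Soat1, were well above background on 0 of the 20 arrays.

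LXRα, encoded by Nr1h3, and LXRβ, encoded by Nr1h2, are nuclear receptors that bind oxysterols and, as heterodimers with RXR, switch on genes that remove cholesterol from the cell. Among their classical targets are the exporters Abca1 and Abcg1, the lipoprotein component Apoe and Mylip, a ubiquitin ligase also called IDOL that curbs lipoprotein uptake. Cholesterol that arrives in endocytosed lipoproteins is handed out of the lysosome by Npc2 and Npc1, and what the cell does not export or use is esterified by Soat1 (also called ACAT1) and stored in lipid droplets. Adipose tissue is a large store of free cholesterol in the body, and the macrophages that surround dying adipocytes in obesity are known to load with lipid.

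The samples were visceral adipose tissue from the epididymal area of male F3 mice of the C57BL/6J strain. All animals descended from a lineage raised over the generations on a growing diet with an added oil. In the control lineage this was high-oleic sunflower oil, and in the omega 3 lineage it was fish oil rich in eicosapentaenoic acid (EPA). The HFoleic group (n = 6) was the control lineage fed a high-fat, high-sucrose diet, the HFepa group (n = 8) was the omega 3 lineage fed that same diet, and the Ref group (n = 6) was the control lineage fed a low-fat reference diet. No omega 3 lineage mice on the low-fat diet were analysed here, so HFepa vs. Ref differed in both diet and lineage. RNA of low integrity had been left out by the authors. Each mouse was measured on 1 array.

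The promoters of the 2 genes to which the results return most, the main LXR-driven exporter and the gene with the largest difference, are shown as the 250 bases before the annotated start, 5′ to 3′ on the strand of the gene, from RefSeq on GRCm38.p6. The Abca1 window lies at chr4:53159896-53160145 and the Soat1 window at chr1:156474329-156474578, both on the minus strand. Capitals mark the LXR-type direct repeat in Abca1, from 67 to 53 bases before the start, and the CCAAT box in Soat1, from 30 to 26 bases before it.
Abca1: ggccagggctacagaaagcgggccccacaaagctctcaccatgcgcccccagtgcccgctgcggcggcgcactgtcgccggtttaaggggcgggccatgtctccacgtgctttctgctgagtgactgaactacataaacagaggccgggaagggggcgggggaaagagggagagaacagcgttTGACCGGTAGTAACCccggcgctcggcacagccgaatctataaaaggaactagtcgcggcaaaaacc
Soat1: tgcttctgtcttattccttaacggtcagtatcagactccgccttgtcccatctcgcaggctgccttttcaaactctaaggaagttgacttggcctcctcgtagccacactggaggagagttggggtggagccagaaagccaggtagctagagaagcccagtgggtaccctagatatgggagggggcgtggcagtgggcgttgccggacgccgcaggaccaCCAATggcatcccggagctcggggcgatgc

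The direct repeat was searched on both strands as GGTNA and GGTCA with 5 bases between them, letters written to take in the element known from the Abca1 promoter, so that its presence there is no finding. It was found in 68 of 32851 promoter windows of 250 bases before to 50 bases after a start (0.207%). The reference table held 10 windows for 7 of the 10 genes, and Abca1 was the only one of these with the repeat. The sterol regulatory element TCACNCCAC was in 1.24% of all windows and in 0 of these 10. CCAAT was in 37.4% of all windows, and among the genes here in those of Mylip, Npc2 and Soat1. Abcg1, Scarb1 and Npc1 had no window in the table. These matches are letters in a window and were not tested for binding.

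The share of spots well above background was alike in the 3 groups, from 66.1% to 71.9% per array, and 0 spots were saturated. The median intensity per array before normalization was 83 to 103 in Ref, 96 to 113 in HFoleic and 88 to 114 in HFepa. Small differences between groups thus depend on the normalization. The number of arrays limits the precision. The arrays lay on 3 slides, each holding all 3 groups. Slide 2 held only 1 HFoleic array (mouse 4), so HFoleic differences within that slide rest on 1 mouse. The adipocyte marker level (the mean log2 intensity of 10 genes such as Adipoq and Plin1) was between 16.65 and 17.29 on every array, so that the defining markers of the labelled tissue were present. Transcripts of the neighbouring testis or epididymis were present on 5 arrays (Ref mice 3 and 6, HFoleic mouse 5, HFepa mice 2 and 4), where the mean level of 4 testis markers or that of Adam7, the 1 epididymis marker of 6 that passed the filter, was over 7 on the log2 scale. HFepa mouse 2 was among them by Adam7 alone (8.62, with testis markers at 5.95). The level of 5 liver markers ranged from 7.77 to 13.20, and 0 of the 5 differed between HFoleic and Ref by limma (0 also at p below 0.05 before adjustment). In a whole tissue, a larger share of a cell type and more RNA per cell cannot be told apart.

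Most macrophage markers were higher in HFoleic than in Ref, 10 of 12 genes (5 without the 5 arrays with testis or epididymis transcripts). Over all genes tested, 15.2% were called higher and 16.6% lower in that comparison. Cd14 went the other way, by -0.29 in HFoleic and -0.55 in HFepa against Ref, neither called (adjusted p = 0.221 and 0.0690, limma). In HFepa vs. Ref and in HFepa vs. HFoleic 0 of the 12 were called. The mean log2 level of the 12 was 11.52 ± 0.19 (SD, n = 6, 11.15 to 11.69) in Ref, 12.70 ± 0.42 (n = 6, 12.04 to 13.20) in HFoleic and 11.99 ± 0.67 (n = 8, 11.09 to 13.18) in HFepa. Every HFoleic mouse lay above every Ref mouse. In HFepa, mice 1 and 6 stood at 13.18 and 12.79, whereas the other 6 mice were between 11.09 and 11.94. The 9 markers of lipid-associated macrophages, such as Trem2 and Gpnmb, were all higher in HFoleic than in Ref, and 1 of the 9 was higher in HFepa than in Ref (8 and 0 without the 5 arrays). Of the 10 adipocyte markers, 3 were lower in HFoleic than in Ref (1 without the 5 arrays) and 0 were higher. The level of 7 fibroblast and progenitor markers ran from 12.22 to 12.78 in Ref, from 12.82 to 13.59 in HFoleic and from 12.33 to 13.11 in HFepa, so that HFoleic and Ref did not overlap. Of the 7, Col1a1, Col3a1 and Lum were higher in HFoleic than in Ref (1.49, 1.37 and 1.57, adjusted p = 0.000455, 0.000821 and 0.000908, limma), and the other 4, Pdgfra and Dcn among them, were not called. The count was 3 without the 5 arrays too. The part of these cell type levels in the results below was not tested, except where a relation is given.

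Between HFoleic and Ref, the gene for cholesterol esterification and that for the soluble lysosomal carrier rose, whereas neither exporter gene passed the test. Soat1 was 3.66-fold and Npc2 1.48-fold higher in HFoleic, whereas Apoe was 1.30-fold and Nr1h2 1.11-fold lower. Abca1, Abcg1, Nr1h3, Mylip, Scarb1 and Npc1 did not pass the threshold. Thus 4 of the 10 genes were called, 2 higher and 2 lower, by limma with Benjamini-Hochberg adjustment over 39392 probes at 0.05. Over all 25619 genes tested, represented by their brightest tested probe as here, 31.8% were called, 15.2% higher and 16.6% lower, so that the share called among these genes was near the background. Before adjustment 6 of the 10 had p below 0.05, against 42.2% of all genes. Without the 5 arrays with testis or epididymis transcripts, which leaves 4 Ref and 5 HFoleic mice, 2 of the 10 were called (Soat1 and Npc2). The median log2 fold change of the 10 genes was -0.12, against -0.04 over all genes.

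**Figure D1:**
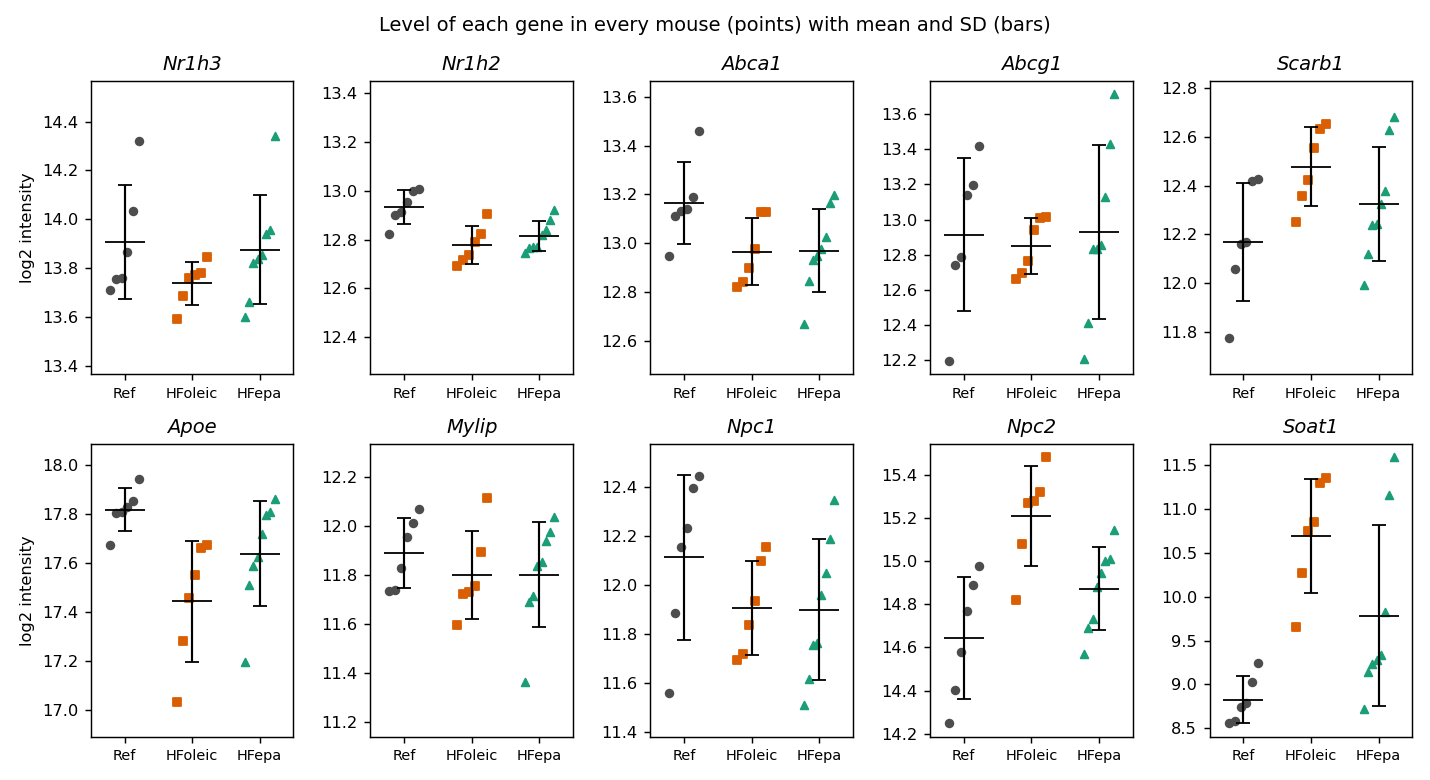
Level of each of the 10 genes as quantile-normalized log2 intensity (y axis, scale differs between panels) in the Ref, HFoleic and HFepa groups; each point is 1 mouse and the bars give the mean and SD. The 6 HFoleic mice lie above the 6 Ref mice in Soat1, between 9.65 and 11.35 against 8.55 to 9.24, while the groups overlap in Abca1, Abcg1, Nr1h3 and Mylip.

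**Figure D2:**
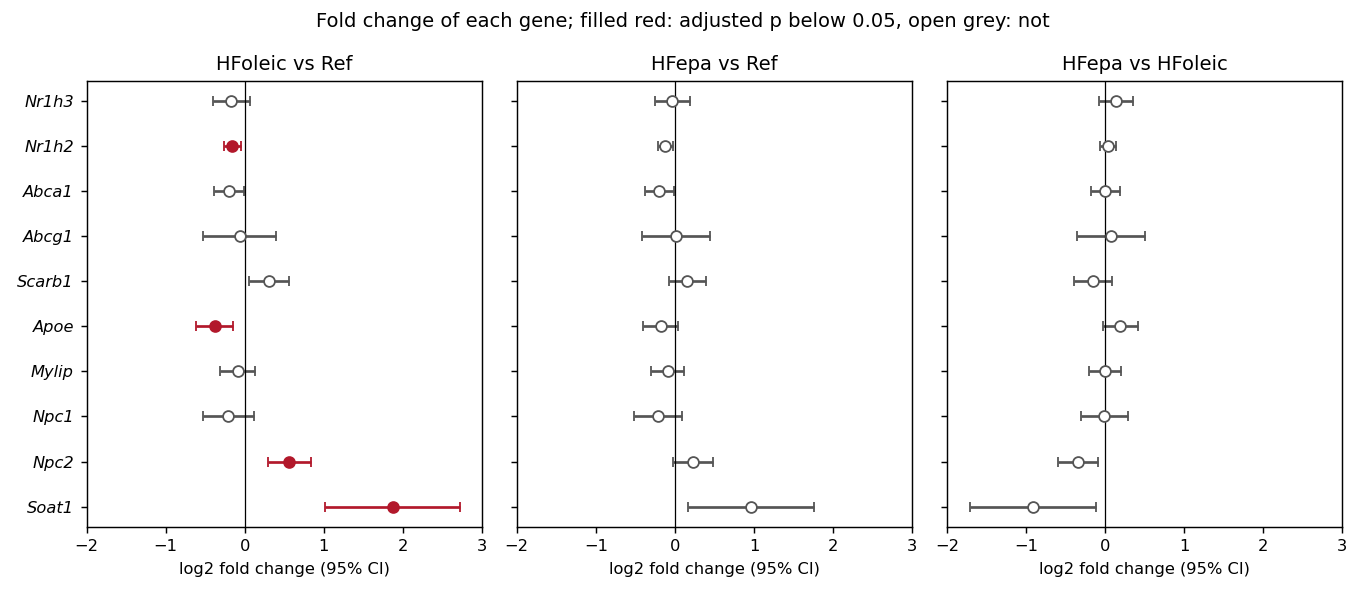
Log2 fold change of each gene (x axis, with 95% confidence interval from limma) with 1 panel per comparison, each high-fat group against Ref and then the 2 high-fat groups against each other. Filled points passed an adjusted p of 0.05: Soat1 and Npc2 to the right and Apoe and Nr1h2 to the left in the first panel, and none in the other panels.

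Among the receptors, Nr1h2 showed a small fall after normalization. Before it, the intensity of Nr1h2 ran from 6476 to 7706.5 in Ref and from 6649 to 8850 in HFoleic, with no fall. Its log2 level was 12.82, 12.93 and 13.01 (lowest, median and highest) in Ref, 12.69, 12.76 and 12.90 in HFoleic, and 12.75, 12.79 and 12.92 in HFepa. Of the 6 HFoleic mice, 5 were below all Ref mice, and the groups overlapped by 1 HFoleic mouse. HFoleic vs. Ref gave a log2 fold change of -0.16 (SE 0.05, adjusted p = 0.0260, limma), and the dimmer tested probe of the gene gave -0.23 (adjusted p = 0.0297). The difference was negative on each of the 3 slides, from -0.23 to -0.10. Among other settings, the call was lost with the processed signal (adjusted p = 0.0954), with median centring (-0.09, adjusted p = 0.274) and when only the compared groups were fitted (adjusted p = 0.0503). It was also lost without HFoleic mouse 4, 7 or 8 or Ref mouse 5 or 6 (adjusted p up to 0.0643), and without the 5 arrays with testis or epididymis transcripts (adjusted p = 0.128).

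Nr1h3, the LXRα gene, had levels of 13.71, 13.81 and 14.32 in Ref, 13.59, 13.76 and 13.85 in HFoleic, and 13.60, 13.85 and 14.34 in HFepa. The 3 groups overlapped, and the highest values were those of Ref mouse 5 and HFepa mouse 3. On the log2 scale Nr1h3 differed by -0.17 (95% CI -0.40 to 0.06, adjusted p = 0.267, limma) in HFoleic vs. Ref and -0.03 (95% CI -0.25 to 0.19) in HFepa vs. Ref. Its other probe gave -0.19 and -0.06.

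The exporter Abca1, which loads cholesterol and phospholipid onto apolipoprotein A1, was measured by a probe at chr4:53043944-53044003 on the minus strand of mm9. Its levels were 12.95, 13.14 and 13.46 in Ref, 12.82, 12.94 and 13.13 in HFoleic, and 12.67, 12.96 and 13.20 in HFepa. The groups overlapped, with 3 of 6 HFoleic and 4 of 8 HFepa mice below all Ref mice. Before normalization the intensity ran from 7268 to 9304 in Ref and from 7938 to 10159 in HFoleic, with no fall. By limma the log2 difference was -0.20 (SE 0.09, unadjusted p = 0.0445, adjusted p = 0.111) for HFoleic against Ref and -0.19 (SE 0.09, unadjusted p = 0.0365, adjusted p = 0.208) for HFepa against Ref. These 2 values share the Ref arrays. With array weights the first of them passed the threshold (adjusted p = 0.0268). HFepa and HFoleic differed by 0.00 (95% CI -0.18 to 0.19), and the sign of that value changed with the scaling. The second, dimmer Abca1 probe gave -0.14 and -0.05 against Ref.

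Abcg1 exports cholesterol to high-density lipoprotein particles. Its levels were 12.20, 12.97 and 13.42 in Ref, 12.66, 12.85 and 13.01 in HFoleic, and 12.21, 12.85 and 13.71 in HFepa. The HFoleic mice lay inside the range of the Ref mice, and the SD was 0.43 in Ref, 0.16 in HFoleic and 0.50 in HFepa. Its log2 difference was -0.07 (95% CI -0.52 to 0.39, adjusted p = 0.855, limma) in HFoleic vs. Ref and 0.01 (95% CI -0.41 to 0.44) in HFepa vs. Ref. The interval is wide enough to hold a difference of the size seen in Apoe.

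Scarb1 encodes SR-BI, the receptor that exchanges cholesterol between cells and high-density lipoprotein. Its levels were 11.78, 12.16 and 12.43 in Ref, 12.25, 12.49 and 12.65 in HFoleic, and 11.99, 12.28 and 12.68 in HFepa. The HFoleic values sat in the upper part of the combined range, and 3 of the 6 were above all Ref mice. The brighter probe, at chr5:125757483-125757542 (minus strand, mm9), missed the threshold with 0.31 (SE 0.12, adjusted p = 0.0588, limma). The dimmer probe, at chr5:125777604-125777663 and designed on another transcript of the gene, was called with 0.46 (SE 0.11, adjusted p = 0.00400). The brighter probe was called under 6 of 14 other settings, among them the slide as a block (0.33, adjusted p = 0.0438), and without HFoleic mouse 5, Ref mouse 4 or 7, or HFepa mouse 3 or 5 (adjusted p from 0.0333). In HFepa vs. Ref neither probe was called (0.16, adjusted p = 0.461, and 0.21, adjusted p = 0.249).

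Apoe, the apolipoprotein that macrophages and adipocytes secrete and that accepts exported cholesterol, was measured at chr7:20281732-20281791 (minus strand, mm9). Its levels were 17.67, 17.82 and 17.94 in Ref, 17.03, 17.50 and 17.67 in HFoleic, and 17.20, 17.67 and 17.86 in HFepa. Of the 6 HFoleic mice, 5 were below all Ref mice. HFoleic differed from Ref by -0.38 (SE 0.11, adjusted p = 0.0150, limma), and the second probe gave -0.62 (SE 0.20, adjusted p = 0.0238). The difference was negative on all 3 slides, from -0.73 to -0.27. It stayed called when each array was left out in turn, and was -0.58 with median centring and -0.63 with the processed signal. Without the 5 arrays with testis or epididymis transcripts it was -0.35 (adjusted p = 0.0939). In HFepa, 4 of 8 mice were below all Ref mice, and the difference of -0.18 (95% CI -0.40 to 0.04) was not called.

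Mylip was not called in any comparison. Its levels were 11.74, 11.89 and 12.07 in Ref, 11.59, 11.74 and 12.11 in HFoleic, and 11.36, 11.84 and 12.04 in HFepa. The groups overlapped, with 3 of 6 HFoleic mice below and 1 above all Ref mice, and 3 of 8 HFepa mice below them. Its mean differed by -0.09 in both comparisons with Ref, with 95% CI of -0.31 to 0.13 (HFoleic) and -0.30 to 0.12 (HFepa).

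The NPC proteins act in sequence in the lysosome, Npc2 picking up free cholesterol in the lumen and Npc1 carrying it through the membrane. Npc2 was measured at chr12:86097947-86098006 (minus strand, mm9). Its levels were 14.25, 14.67 and 14.98 in Ref, 14.82, 15.28 and 15.48 in HFoleic, and 14.57, 14.91 and 15.15 in HFepa. Of the 6 HFoleic mice, 5 were above all Ref mice, and 4 of 6 Ref mice were below all HFoleic mice. The log2 fold change was 0.57 (SE 0.13, adjusted p = 0.00317, limma) in HFoleic vs. Ref, and lay between 0.34 and 0.70 within the slides. It was called under all 14 other settings and when each array was left out in turn.

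Npc1 was not called by its brightest probe, unlike Npc2. The levels of its brightest probe were 11.56, 12.20 and 12.44 in Ref, 11.69, 11.89 and 12.15 in HFoleic, and 11.51, 11.86 and 12.35 in HFepa. The HFoleic mice lay inside the Ref range, with a log2 fold change of -0.21 (95% CI -0.53 to 0.11, adjusted p = 0.332, limma). The other 2 tested probes, dimmer and designed on other transcripts of the gene, were both called lower, with -0.43 (adjusted p = 0.0404) and -0.37 (adjusted p = 0.0234). Within the slides the brightest probe ran from -0.57 to 0.43 and was positive on 1 of the 3, slide 2, which held 1 HFoleic mouse. The probes of Npc1 thus had the same sign but different calls.

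Soat1 showed the largest difference of the 10 genes. The brightest of its probes, at chr1:158360916-158360975 (minus strand, mm9), read 8.74, 9.24, 8.79, 8.59, 9.03 and 8.55 in Ref mice 2 to 7. It read 9.65, 11.35, 10.75, 11.29, 10.27 and 10.85 in HFoleic mice 1, 4, 5, 6, 7 and 8. In HFepa mice 1 to 8 it read 11.59, 9.14, 9.28, 9.23, 9.33, 11.16, 9.83 and 8.72. All 6 HFoleic mice were above all 6 Ref mice, whereas in HFepa mice 1 and 6 were among or above the HFoleic mice, mouse 7 was above the lowest of them, and the other 5 were below them all. Of all genes tested, 14% had HFoleic and Ref groups that did not overlap, in either direction.

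In HFoleic vs. Ref, Soat1 differed by 1.87 on the log2 scale (SE 0.41, adjusted p = 0.00239, limma). The other 3 tested probes, spread along the gene, gave 1.52 to 1.69 and were all called. Within the slides the difference was 1.60 to 2.78, and leaving out single arrays moved it between 1.74 and 2.08. It was called under all 14 other settings (adjusted p up to 0.0246). In HFepa vs. Ref, 5 of the 8 mice were above all Ref mice by the brightest probe, and its log2 fold change of 0.96 (SE 0.38, unadjusted p = 0.0211, adjusted p = 0.162, limma) was not called. The other tested probes gave 0.84 to 0.96 and were not called either. By the dimmest of them, all HFepa mice were above all Ref mice (6.22 to 8.37 against 5.95 to 6.17). The other tested Soat1 probes overlapped, and signals as low as these are compressed towards background. By the brightest probes, 1.04% of all genes had no overlap in this comparison.

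The level of Soat1 followed that of the macrophage markers from mouse to mouse in both high-fat groups. Over the 8 HFepa mice Pearson's r was 0.974 (two-sided exact permutation p = 0.00104, 0.0313 after adjustment over 30 relations of 10 genes in 3 groups), and Spearman's rho was 0.786 (exact permutation p = 0.0279, adjusted 0.419). Without mice 1 and 6, the farthest from the median, r was 0.814. Over the 6 HFoleic mice r was 0.989 (exact permutation p = 0.00833, adjusted 0.125) and rho 0.943 (exact permutation p = 0.0167, adjusted 0.419), with an r of 0.999 without mice 1 and 6. Over the 6 Ref mice r was -0.22 (exact permutation p = 0.614), rho was 0.26 (exact permutation p = 0.658) and r was 0.19 without mice 5 and 6. The HFepa value was the only one of the 30 to pass the adjustment, and by rank none did. Mice 1 and 6 of HFepa, the highest in Soat1, were also the highest in the marker level.

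No relation of the other 9 genes with the marker level passed the adjustment. In Npc2 r was 0.80 in HFoleic (exact permutation p = 0.0694), 0.61 in HFepa (exact permutation p = 0.101) and 0.55 in Ref (exact permutation p = 0.300). Without the 2 mice farthest from the median these fell to -0.10, 0.11 and -0.08. This left fewer mice over a narrower range of the marker level, so the fall cannot show what the relations rested on. In Abca1 r was negative in both high-fat groups, -0.77 in HFoleic (exact permutation p = 0.0889) and -0.77 in HFepa (exact permutation p = 0.0305, adjusted 0.305), and -0.44 and -0.55 without the farthest mice. In Ref it was -0.08 (exact permutation p = 0.672), and 0.78 without mice 5 and 6. Macrophages express Abca1, Soat1, Npc2 and Apoe, as do other cells of the tissue.

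**Figure D3:**
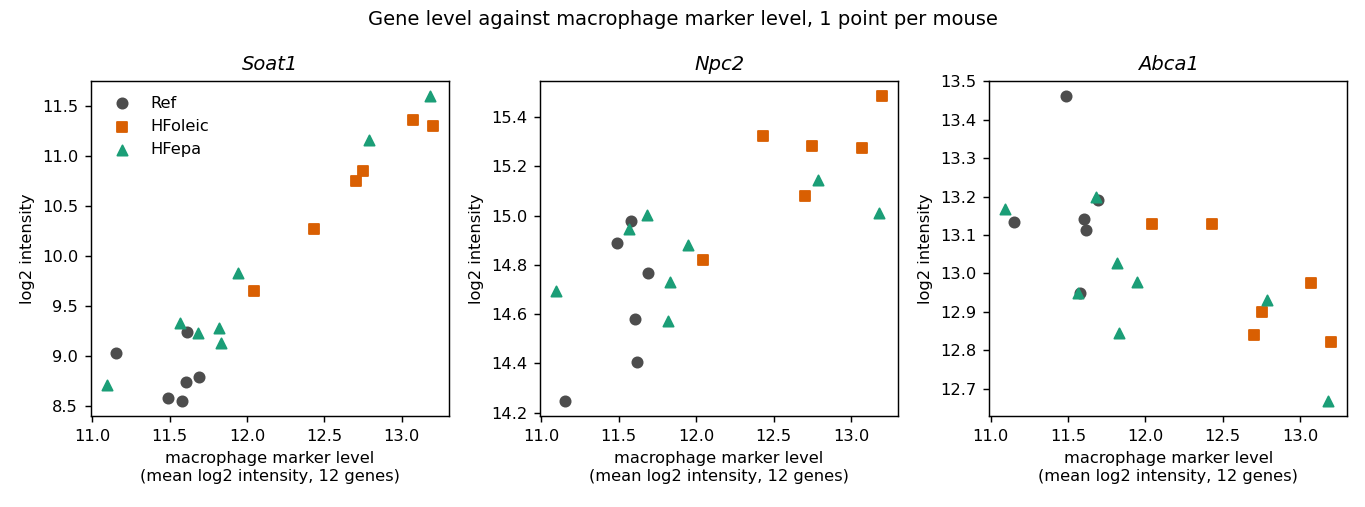
Level of Soat1, Npc2 and Abca1 (y axis, log2 intensity) against the macrophage marker level (x axis, mean log2 intensity of 12 genes), 1 point per mouse, in Ref, HFoleic and HFepa. Soat1 climbs with the marker level within HFoleic and HFepa, where HFepa mice 1 and 6 lie among the HFoleic mice at the upper right. Abca1 slopes downward in the 2 high-fat groups (r of -0.77 in each) and not in Ref (r of -0.08), and none of its relations passed the adjustment.

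In HFepa vs. Ref, 0 of the 10 genes were called by limma, against 2.46% of all genes (1.04% higher and 1.42% lower). By the brightest probes, groups without overlap were seen in 0 of the 10 and in 1.04% of all genes. Before adjustment, Soat1, Nr1h2 and Abca1 (3 of 10) had p below 0.05, as did 21.5% of all genes. The median log2 fold change was -0.06, against -0.02 over all genes. Soat1 was 1.95-fold and Npc2 1.17-fold higher on average (log2 0.96 and 0.23), and Nr1h2 and Abca1 were lower by -0.12 and -0.19. No alternative setting or left-out array gave a call for any of the 10 genes in this comparison.

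In HFepa vs. HFoleic, the comparison of the lineages under the same diet, 0 of the 10 genes and 0% of all genes were called by limma. Before adjustment 2 of 10 had p below 0.05, against 20.8% of all genes, and groups without overlap were seen in 0 of the 10 and in 0.355% of all. The 2 were Soat1, lower by -0.91 in HFepa (SE 0.38, unadjusted p = 0.0279, adjusted p = 0.191, limma), and Npc2, lower by -0.34 (SE 0.12, unadjusted p = 0.0118, adjusted p = 0.146). The other tested Soat1 probes gave -0.56 (unadjusted p = 0.113, limma), -0.83 and -0.85, none of them called. The dimmer Scarb1 probe gave -0.25 (unadjusted p = 0.0249, adjusted p = 0.183, limma). Of the 8 HFepa mice, 5 were below all HFoleic mice in Soat1 and 3 in Npc2. Both differences were negative on each of the 3 slides, of which slide 2 held 1 HFoleic mouse. With array weights both were called (Soat1 -1.08, adjusted p = 0.0349; Npc2 -0.39, adjusted p = 0.0291). Soat1 was also called without HFepa mouse 1 (-1.17, adjusted p = 0.0380). Apoe was 0.20 higher in HFepa (95% CI -0.02 to 0.41). For the other genes the 95% intervals of the brightest probes ran no further than from -0.39 to 0.51.

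The wider sterol pathway was described with 6 further lists holding 59 tested genes. Between HFoleic and Ref, 15 were higher and 6 lower (35.6% called, against 31.8% of all genes). Without the 5 arrays with testis or epididymis transcripts, and so with fewer mice, 9 were higher and 5 lower. In HFepa vs. Ref and in HFepa vs. HFoleic 0 of the 59 were called by limma, against 2.46% and 0% of all genes. Before adjustment 16 in each (27.1%) had p below 0.05, against 21.5% and 20.8% of all genes. Since these comparisons share arrays, their values are given side by side only.

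Of 7 receptor partners and coregulators, 3 were called in HFoleic vs. Ref. The RXR subunit gene Rxrg was higher by 0.78 (SE 0.14, adjusted p = 0.000795, limma), and it was 0.48 higher in HFepa (adjusted p = 0.0558). The corepressor gene Ncor1 and the coactivator gene Ncoa1 both differed by -0.45 (adjusted p = 0.00295 and 0.00176). The median over the list was 0.05.

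Of 13 other LXR targets, 3 were called (1 without the 5 arrays with testis or epididymis transcripts) and 10 were not, with a median of -0.09. Pltp, a phospholipid transfer protein, was 1.90-fold higher (log2 0.93, SE 0.19, adjusted p = 0.00183, limma). Its levels were 11.46, 11.69 and 11.77 in Ref against 11.88, 12.66 and 13.03 in HFoleic, without overlap, as in 14% of all genes. Smpdl3a, a phosphodiesterase, was higher by 0.29 (adjusted p = 0.0186). Apoc1, an apolipoprotein of the gene cluster that holds Apoe, was lower by -0.47 (adjusted p = 0.0336). Srebf1, Scd1 and Fasn, the lipogenic targets, were not called (0.11, -0.21 and -0.19).

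Among 8 genes of lipoprotein uptake, 4 were higher (2 without the 5 arrays with testis or epididymis transcripts) and 0 lower in HFoleic, with a median of 0.45. Vldlr, a receptor for triglyceride-rich lipoproteins, rose by 0.77 (adjusted p = 0.00259, limma). The scavenger receptor genes Olr1 and Msr1 rose by 0.80 (adjusted p = 0.00175) and 1.19 (adjusted p = 0.0101). Msr1 is itself a gene of macrophages. Against Ref, HFepa values were 0.26, 0.27 and 0.41 for Vldlr, Olr1 and Msr1, with 0 called.

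Enzymes on the other side of the ester cycle from Soat1 moved in both directions. Of 13 genes of intracellular transport and ester turnover, 3 were higher and 2 lower in HFoleic (2 and 2 without the 5 arrays), with a median of 0.17. Nceh1, a neutral cholesteryl ester hydrolase of macrophages, rose 3.88-fold (log2 1.96, SE 0.45, adjusted p = 0.00303, limma), and Lipa, the lysosomal acid lipase, 2.84-fold (log2 1.51, SE 0.37, adjusted p = 0.00449). Lipe, hormone-sensitive lipase, which splits cholesteryl esters and diacylglycerol in adipocytes, was 2.27-fold lower (log2 -1.19, SE 0.20, adjusted p = 0.000518). The HFoleic and Ref groups did not overlap in any of these 3 genes, nor in 14% of all genes. The 3 were named for the smallest p of the list in this comparison, so this adds no support. Against Ref, HFepa values were 1.02, 0.73 and -0.51, none of them called. Stard5 was higher by 0.28 and the sterol carrier gene Scp2 lower by -0.55.

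None of the 6 oxysterol enzymes tested was called in HFoleic vs. Ref by limma. Before adjustment 3 of the 6 (Cyp46a1, Sult2b1 and Hsd3b7) had p below 0.05, against 42.2% of all genes. Cyp46a1, which makes an oxysterol ligand of LXR from cholesterol, differed by 0.17 (adjusted p = 0.0727) and Sult2b1, which sulfates oxysterols, by 0.55 (adjusted p = 0.0991). Hsd3b7, an enzyme of bile acid synthesis, differed by -0.23 (adjusted p = 0.110).

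Of 12 genes of cholesterol synthesis and its SREBP2 control, 5 were higher and 1 lower in HFoleic (3 and 1 without the 5 arrays with testis or epididymis transcripts), with a median of 0.31. Insig1, which holds the SREBP precursors in the endoplasmic reticulum, rose 3.26-fold (log2 1.70, SE 0.28, adjusted p = 0.000516, limma), Dhcr7 3.08-fold (log2 1.62, SE 0.27, adjusted p = 0.000555) and Lss 1.92-fold (log2 0.94, SE 0.15, adjusted p = 0.000449). Insig2 was lower by -0.76. HFepa lay between the groups, with 0.67, 0.73 and 0.25 against Ref for Insig1, Dhcr7 and Lss and -1.03, -0.89 and -0.68 against HFoleic, with none called. The macrophage and fibroblast marker levels were higher in HFoleic too, and their part in the values of the 6 lists was not tested.

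**Figure D4:**
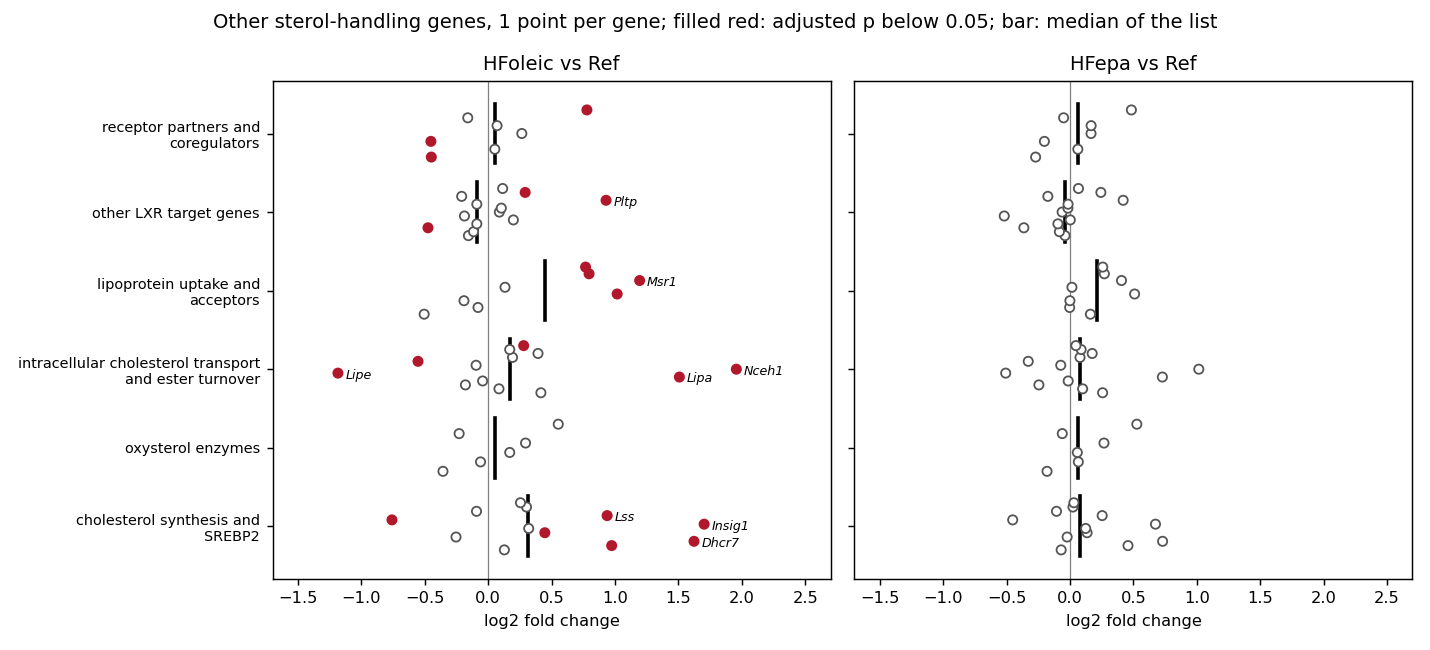
Log2 fold change (x axis) of the 59 tested genes of the 6 further sterol lists (y axis), 1 point per gene, in HFoleic vs. Ref and HFepa vs. Ref; filled points passed an adjusted p of 0.05 and the bar is the median of the list. In HFoleic, Nceh1, Insig1, Dhcr7, Lipa and Msr1 lie farthest to the right and Lipe farthest to the left, and no point is filled in HFepa.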

How the data were processed

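Arrays read 1 colour (Cy3). The authors extracted the spot signals with Agilent Feature Extraction 10.10.1.1; per the file headers, the deposited median, mean and background intensity values are linear and not normalized, and the processed intensity has the background subtracted. The authors also deposited a log2 table made from the median intensity by a filter and quantile normalization. It holds 38168 probes, 38132 of them tested here, and its columns correlate with the log2 median intensity per array at r of at least 0.9997.

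The median intensity of 59305 non-control spots was used without background correction, so low values are compressed towards background. Spots that the software marked (uneven, or population outliers) were set missing, and after quantile normalization of the log2 values repeated spots of a probe were averaged. A probe was tested when well above background on at least 6 arrays, which left 39392 probes. Positions are those of the files (mm9). The exon or UTR under each probe was not assigned, because the annotation used here is of another assembly.

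Following the study's methods, 1 mean per group was fitted to all 20 arrays with lmFit and eBayes of limma 3.58.1 (R 4.3.3), with Benjamini-Hochberg adjustment over all probes at 0.05. A gene stands for its brightest tested probe. Permutation tests used scipy 1.17.1, and figures matplotlib 3.10.9. Nothing in the labels says that mice of a group came from separate litters. The genes and lists were chosen with earlier results of these data known. Named genes were the 10 genes, in each other list the 3 with the smallest p in HFoleic vs. Ref, and the 5 most similar genes for Abca1 and Abcg1; other list members were named after their values were seen. On simulated data with 200 of 39392 probes changed by log2 1, 92.5% were recovered (HFoleic vs. Ref), 91.5% (HFepa vs. Ref) and 94% (between the high-fat groups), and 15, 11 and 10 unchanged probes passed too. The simulated noise was normal, independent between probes and of equal spread in the groups. The data differ in this, so the shares do not give the recovery for a gene such as Soat1.

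Other settings tried were the processed signal scaled to the 75th percentile of its array, normexp with an offset of 50, median centring, the authors' log2 table, 2 other filters, keeping marked spots, array weights, a block for slide or for replicate number, robust eBayes with an intensity trend, a fit to the compared groups alone, averaging the probes of a gene, and leaving out each array. Leaving out the 5 arrays with testis or epididymis transcripts was added after seeing the data. Lipg, Npc1l1 and Cyp7a1 of the lists did not pass the filter. Some list members that count in the totals are not reported here by name.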

Additional observations from a re-analysis of the deposited data

How the results depend on the processing

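Soat1 and Npc2 stayed called in HFoleic vs. Ref, with the same sign, under every alternative and every left-out array. The number of the 10 genes called there was 4, and ranged from 2 to 6 over the alternatives and from 3 to 5 over the left-out arrays. It was 2 with the replicate block and 2 without the 5 arrays with testis or epididymis transcripts, an alternative added after seeing the data, which left 15 arrays; Nr1h2 and Apoe were lost in both. In HFepa vs. Ref it was 0 throughout. In HFepa vs. HFoleic it was 0 except for 2 with array weights, and ranged from 0 to 1 over the left-out arrays.

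The labels do not say whether the replicate numbers pair the mice. The correlation of same-numbered arrays ran from -0.58 to 0.56, and 0 of 4, 0 of 6 and 1 of 6 arrays correlated best with their own number. Such correlations over all genes cannot exclude a pairing by design. The authors matched the high-fat groups for body weight. With the replicate block, probes called fell from 12122 to 7844 in HFoleic vs. Ref, from 896 to 25 in HFepa vs. Ref and from 1 to 0 in HFepa vs. HFoleic. Nr1h2 was -0.14 (adjusted p = 0.100) and Apoe -0.30 (adjusted p = 0.148) under it.

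Probes called in HFepa vs. Ref were 587 with median centring, 583 without the filter, 139 with only the compared groups and 1449 with array weights, and 130 (without Ref mouse 6) to 2495 (without HFepa mouse 3) over the left-out arrays. In HFepa vs. HFoleic they were 1284 with the slide as a block and 4556 with array weights, and 0 to 2859 (without HFepa mouse 1) over the left-out arrays; they were 0 with the processed signal, normexp, median centring and only the compared groups. Without the 5 arrays they were 6371, 0 and 0 in the 3 comparisons. The cause was not tested.

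Differences near 0 changed sign. Under the alternatives, the sign turned for Abca1 in HFepa vs. HFoleic to -0.013 (the processed signal), -0.0012 (normexp), -0.041 (median centring), -0.0050 (the authors' log2 table), -0.0038 (the slide as a block), -0.038 (the 5 arrays left out). The sign turned for Mylip in HFepa vs. HFoleic to 0.012 (the processed signal), 0.0018 (normexp), 0.00078 (the authors' log2 table), 0.0019 (marked spots kept), 0.0068 (the replicate block), 0.022 (array weights). The sign turned for Npc1 in HFepa vs. HFoleic to 0.012 (the processed signal), 0.0022 (normexp), 0.040 (the slide as a block), 0.11 (the mean of all probes), 0.038 (the 5 arrays left out). The sign turned for Abcg1 in HFoleic vs. Ref to 0.0013 (median centring). The sign turned for Nr1h2 in HFepa vs. HFoleic to -0.0052 (median centring). The sign turned for Abcg1 in HFepa vs. Ref to -0.022 (the replicate block), -0.12 (array weights). The sign turned for Abcg1 in HFepa vs. HFoleic to -0.039 (array weights). Over the left-out arrays, sign changes were seen within these ranges: Mylip in HFepa vs. HFoleic from -0.042 to 0.062, Abcg1 in HFepa vs. Ref from -0.13 to 0.12, Npc1 in HFepa vs. HFoleic from -0.071 to 0.049, Abca1 in HFepa vs. HFoleic from -0.028 to 0.048, Nr1h3 in HFepa vs. Ref from -0.098 to 0.051, Abcg1 in HFepa vs. HFoleic from -0.033 to 0.18, Abcg1 in HFoleic vs. Ref from -0.21 to 0.035. None of these values was called.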

Other observations

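Within the groups, the levels of some of the 10 genes varied together from mouse to mouse. After each group was centred on its mean, Pearson's r over the 20 arrays was 0.66 for Abcg1 and Npc1, 0.63 for Scarb1 and Npc2, and 0.58 for Abcg1 and Nr1h3. It was -0.60 for Abca1 and Soat1 and -0.62 for Apoe and Soat1. For Abca1 and Abcg1 it was -0.05. These are descriptions of arrays that share slides and mixed tissue.

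The genes most similar to Abca1 over the 20 group-centred arrays were Tab3 (r = 0.87), Trim23 (0.85), Gm4925 (0.85), Arxes2 (0.84) and Hint2 (0.84). Those most similar to Abcg1 were Fnbp1 (0.88), Chic2 (0.84), Pitpnc1 (0.84), Rinl (0.84) and Mettl3 (0.83). No gene was on both lists. In HFoleic vs. Ref, Trim23, Gm4925 and Hint2 were lower (-0.36, -0.33 and -0.54, adjusted p = 0.0197, 0.00832 and 0.000555, limma) and Mettl3 was higher (0.20, adjusted p = 0.0207), whereas Abca1 and Abcg1 themselves were not called.

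None of the 30 sets of values (10 genes in 3 groups) held a mouse that stood apart from its group by Dixon's criterion. This criterion takes the gap between the most extreme mouse and its neighbour, so a pair of high mice can hide each other. The spread of Soat1 in HFepa (SD 1.03, n = 8), against 0.27 in Ref and 0.65 in HFoleic (n = 6 each), went with the high values of mice 1 and 6.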
